A study of Homo sapiens with 12 samples.

Results

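The comparison described here sets Sk-hep1 cells kept in high-fat medium (HFM) for 12 hours against Sk-hep1 cells kept in growth medium (GM) for 24 hours. These groups are called HFM12 and GM24 below. The pair was chosen by the likeness of its measured array values, and it uses 6 of the 12 arrays of the series, 3 for each group. The other 6 arrays are GM at 12 hours (GM12) and HFM at 24 hours (HFM24), again 3 each. All 4 groups are the same established human cell line, which the labels place in liver and ascites as an adenocarcinoma with an endothelial cell type. All cells had been grown in DMEM with fetal bovine serum, penicillin, streptomycin and glutamine before treatment. GM was based on DMEM and HFM on DMEM/F12, so the basal medium differed together with the fat, whose kind and amount the labels used here leave unstated. Medium and time both differ between HFM12 and GM24, and their parts in a difference cannot be told apart in this comparison. No label ties the 3 replicates of a group to cultures of their own. Each p-value below is therefore a statement about the spread among these arrays alone, and that spread may be technical.

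Some background helps to read the genes named below. Cells that divide first copy their DNA, with the helicase and polymerase genes driven by E2F factors, and then build the spindle and kinetochores with another set of genes that peaks before mitosis. Low oxygen, through hypoxia-inducible factors, raises genes of glycolysis and glucose entry. Growth factor signals pass through the kinase ERK, which induces its own inhibitors, the DUSP phosphatases and the Sprouty and SPRED proteins, and so their RNAs are often read as an output of ERK. Cholesterol and fatty acid synthesis genes such as HMGCS1 and SCD are driven by the SREBP factors, which fall silent when membranes hold enough sterol.

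The likeness that chose the pair is given as a description, with no test. Across the 13130 genes tested, HFM12 arrays correlated with GM24 arrays at a mean r of 0.990, with a range of 0.980 to 0.994. Genes are not independent replicates, and all these values share the array platform and its normalisation. The median absolute log2 difference between the group means was 0.165, and 93.7% of genes differed by less than 0.5 on the log2 scale. Only 34 genes differed by at least 2-fold between the means of HFM12 and GM24. The same count was 286 between HFM12 and GM12, which share the time, and 983 between GM24 and HFM24, which also share it. It was 561 between GM12 and GM24, 1005 between HFM12 and HFM24, and 2622 between GM12 and HFM24.

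**Figure D1:**
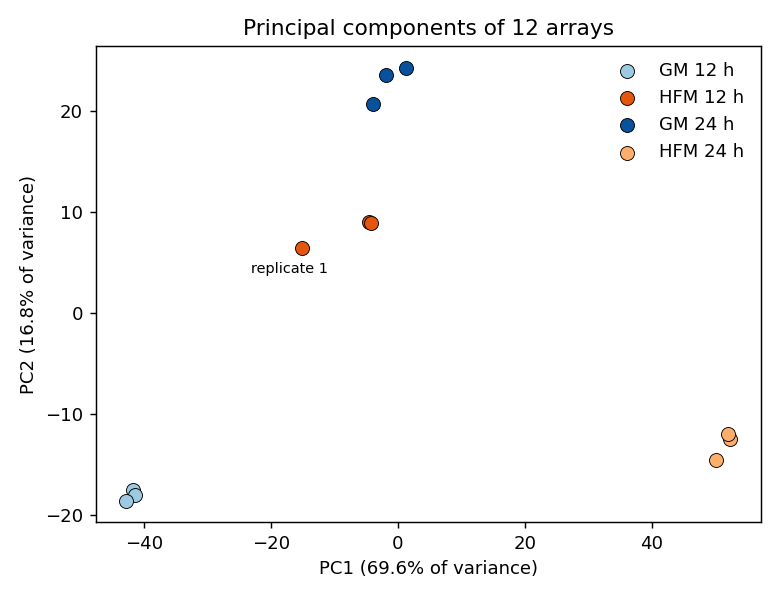
Principal components of the 13130 genes tested on 12 arrays, with the first component (69.6% of variance) on the x axis and the second (16.8%) on the y axis. Each point is 1 array; HFM12 and GM24 lie close on the first component and apart on the second, and HFM12 replicate 1 lies on the GM12 side of its group.

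One array stood apart within the pair. HFM12 replicate 1 correlated with its own group at a mean r of 0.992, against 0.995 for each of the other 2 HFM12 arrays, and with GM24 at 0.984 against 0.993 and 0.994. The median of its tested genes was 7.38, and that of the other 5 arrays of the pair lay between 7.24 and 7.28. Counts of the gene lists are therefore also given without this array. The 3′ minus 5′ difference of the ACTB control probe sets, a measure of RNA integrity, was 0.69, 0.92 and 0.90 in HFM12 and 1.02, 1.07 and 1.12 in GM24 (exact two-sided permutation p = 0.1, the smallest that 3 against 3 arrays allow). The same difference for GAPDH was 0.155, 0.153 and 0.148 in HFM12 and 0.182, 0.152 and 0.142 in GM24 (exact p = 0.9). Of 22 endothelial markers, 12 were below log2 4 on all 6 arrays, among them the defining genes CDH5, VWF, KDR and TIE1. The list's mean level was 3.90 to 3.92 in HFM12 and 3.91 to 3.97 in GM24. The other 10 were not below log2 4 throughout, and of these ENG had means of 7.47 and 7.26 in HFM12 and GM24, EGFL7 6.74 and 6.48, FLI1 6.53 and 6.66, and ROBO4 6.41 and 6.90. The rest of these 10 were dimmer: FLT1 had means of 4.79 and 5.06, STAB1 4.84 and 4.89, NOS3 4.46 and 4.36, PECAM1 4.08 and 4.19, ESAM 4.05 and 3.96, and ICAM2 3.94 and 4.37. A few members of the list were thus above log2 6 and most were dim or below log2 4, and these levels do not settle the labelled endothelial type. Of 16 hepatocyte markers 8 were below log2 4 on all 6 arrays, ALB among them, while of 15 epithelial markers 5 were above 8 on all of them, among them the keratins KRT8 and KRT18, and 5 were below 4, among them EPCAM and CDH1. Of 15 fibroblast and mesenchymal markers 4 were above 8, among them VIM with means of 13.59 and 13.56, and 4 were below 4. Of the leukocyte markers CD45 (PTPRC) had means of 2.10 and 1.98. Its list had a mean level of 4.30 to 4.33 in HFM12 and 4.18 to 4.24 in GM24. Of 6 members tested 2 were called higher (22.0% of all genes tested), CORO1A at 0.62 and HLA-DRA at 0.29. The part of this list in the results was not tested. In bulk RNA, fewer cells of a type and less RNA per cell cannot be told apart.

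A gene was called when its Benjamini-Hochberg adjusted p from limma was under 0.05 in a fit of all 4 groups. Each limma SE also comes from this fit, which takes 1 spread per gene for all 4 groups. It can therefore understate the spread of HFM12 where the HFM12 arrays lay apart. Between HFM12 and GM24, 4733 genes were called (36.0% of the genes tested). Of these 2887 were higher in HFM12 (22.0%) and 1846 lower (14.1%). The arrays of the groups did not overlap in 6185 genes (47.1%). These shares are the background for the counts of gene lists below, and since the pair was chosen on these same values nothing is read from them. The lists were chosen with earlier results of these data known, so a list count above these shares is a description only. With the spread estimated from only the 6 arrays of the pair, 2600 genes were called, 1516 higher and 1084 lower. Without HFM12 replicate 1, 4900 were called, 2618 higher and 2282 lower, and of the genes called with all arrays 2444 higher and 1676 lower ones kept their call while 0 turned direction. Calls were mostly small in size: 18 higher and 16 lower genes reached 2-fold. The median difference over all genes was 0.04.

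The 4 groups together place the extreme levels. The choice of genes with a large difference between HFM12 and GM24 itself favours such extremes, so the counts that follow are descriptions. Among the 18 genes at least 2-fold higher in HFM12, the HFM12 arrays lay above all 9 other arrays of the series in 9, and the GM24 arrays lay below all 9 others in 10. Among the 16 genes at least 2-fold lower in HFM12, the HFM12 arrays lay below all others in 4 and the GM24 arrays above all others in 11. Over all genes tested, with no choice by size, HFM12 lay above all others in 4.19% and below in 1.02%, and GM24 above in 7.70% and below in 6.30%. A gene can be counted on both sides.

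**Figure D2:**
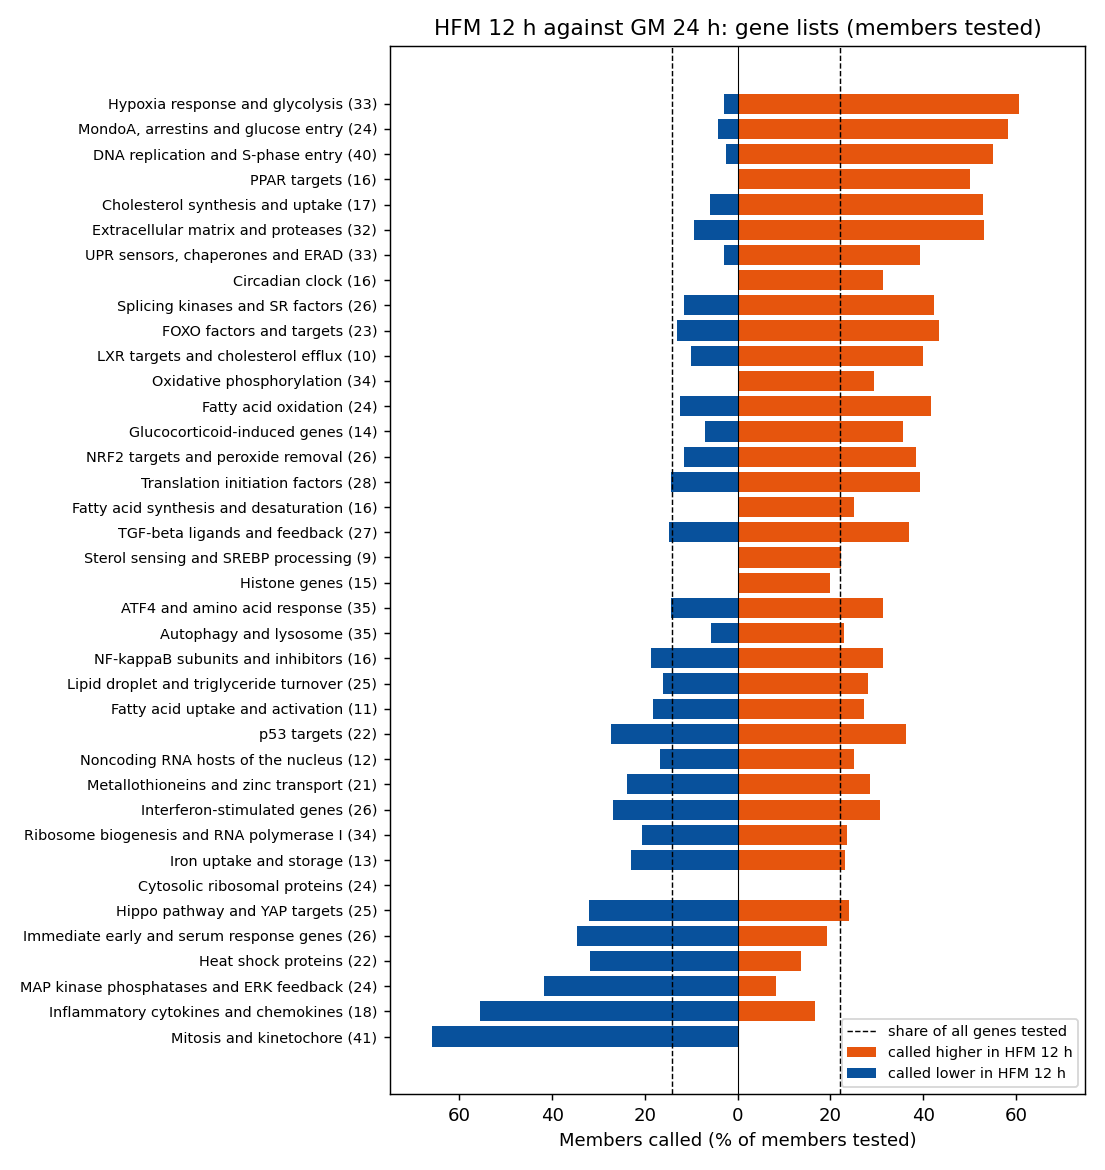
Share of the tested members of 38 gene lists that were called higher (right) or lower (left) in HFM12 than in GM24, in percent, with the number tested in parentheses. Dashed lines mark the shares of all genes tested, 22.0% higher and 14.1% lower; hypoxia, glucose entry and DNA replication lie at the top and mitosis at the bottom.

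Genes of DNA replication were higher in HFM12 while genes of mitosis were lower. Of 40 replication and S-phase genes tested, 22 were called higher (22.0% of all genes tested) and 1 lower (14.1%), and 17 did not pass. Their median difference was 0.23, against 0.04 over all genes. Of 41 mitosis and kinetochore genes, 27 were called lower and 0 higher by limma, and 14 did not pass; 1 was higher and 30 were lower at an unadjusted p under 0.05. Their median difference was -0.36. Without HFM12 replicate 1 the counts were 21 higher and 3 lower for replication, and 0 higher and 31 lower for mitosis. With only the 6 arrays of the pair in the fit they were 16 and 1, and 0 and 20. The lower ACTB 3′ minus 5′ difference of HFM12 went along with these counts, and its part in them was not tested.

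CDC45, a subunit of the replicative helicase, had the largest difference of the replication list. Its log2 level was 8.69, 8.46 and 8.43 in HFM12 and 7.93, 7.96 and 7.82 in GM24. All 3 HFM12 arrays were above all GM24 arrays, a difference of 0.62 ± 0.08 (SE, limma adjusted p = 0.00016, n = 3 per group). POLA2, a subunit of the DNA polymerase that lays down primers, was at 8.54, 8.32 and 8.35 in HFM12 and 7.98, 7.85 and 7.74 in GM24, again without overlap. The difference was 0.54 ± 0.07 (SE, adjusted p = 0.00024). MCM5, part of the ring of the helicase, was at 10.32, 10.07 and 10.02 against 9.70, 9.61 and 9.51. The difference was 0.53 ± 0.08 (SE, adjusted p = 0.00046). The other 5 subunits of that ring, named together as a complex after their values were seen, were also called higher, MCM4 at 0.52, MCM7 at 0.41, MCM2 at 0.37, MCM3 at 0.31 and MCM6 at 0.18. In all of these genes replicate 1 was the highest HFM12 array where single values are given. E2F3, an E2F transcription factor, was the 1 member called lower, at 8.47, 8.62 and 8.64 in HFM12 and 9.12, 9.12 and 9.08 in GM24, a difference of -0.53 ± 0.06 (SE, adjusted p = 0.00011).

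In the mitosis list the GM24 arrays held the highest levels of the series. In 19 of its 41 members tested, all 3 GM24 arrays lay above all 9 other arrays (7.70% of all genes tested). HMMR, a protein that binds hyaluronan and spindle microtubules, was at 10.10, 10.34 and 10.30 in HFM12 and 11.04, 11.06 and 11.12 in GM24. HFM12 was thus 1.78-fold lower, a log2 difference of -0.83 ± 0.06 (SE, adjusted p = 8.7e-06), and the GM12 and HFM24 means of 8.97 and 9.92 were lower still. CENPE, the kinetochore motor that moves chromosomes to the spindle middle, was at 7.58, 7.50 and 7.48 against 8.35, 8.40 and 8.30. Its difference was -0.83 ± 0.07 (SE, adjusted p = 1e-05), and its GM12 mean was 6.08. ASPM, a spindle pole protein, was at 9.91, 9.97 and 10.03 against 10.81, 10.84 and 10.81, a difference of -0.85 ± 0.05 (SE, adjusted p = 2.4e-06). When probe sets of types prone to cross-hybridisation were left out, the remaining ASPM probe set gave 0.22, so its direction depends on the probe set. ECT2, a factor for the cleavage furrow, was at 9.28, 10.14 and 10.21 in HFM12 and 10.56, 10.65 and 10.88 in GM24. Here replicate 1 lay far below the other HFM12 arrays, and the difference of -0.82 ± 0.19 (SE, adjusted p = 0.0073) shrank to -0.52 without it. The standard deviation of ECT2 was 0.52 in HFM12 and 0.16 in GM24, while its SE takes 1 spread for all 4 groups.

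Promoter sequences of both lists are shown because their members moved together in opposite directions. The windows run from 250 bases before to 50 bases after a gene's start (RefSeq, GRCh38.p14), and of 13130 genes tested 10590 had one under the same symbol (the first listed where a gene had several). The E2F-type motif TTTNNCGC, searched on both strands, was found in 13 of the 20 windows of the replication genes called higher (65.0%), against 10.1% of the windows of all genes tested and 6.90% of all 27305 windows. Replication genes that were not called higher held it in 9 of 15 windows, a like share. The CHR motif TTTGAA, searched on both strands, was found in 15 of 23 windows of the mitosis genes called lower (65.2%), against 9.72% over genes tested and 15.4% of all windows. The CCAAT motif was found in 17 of the 23 (73.9%), against 36.6% and 35.7%. Mitosis genes not called lower held these motifs in 7 and 8 of 12 windows. None of the motifs contains another, though neighbouring matches can share bases, and a match is a description, not a site. Shown are the 250 bases before the start, 5′ to 3′, of 2 called members of each list with large differences whose window holds the E2F-type or the CHR motif. They are POLA2 at chr11:65261712-65261961 (plus strand) and E2F1, itself an E2F factor, at chr20:33686386-33686635 (minus strand), with E2F-type matches on either strand in capitals. They are followed by ASPM at chr1:197146670-197146919 (minus strand) and HMMR at chr5:163460382-163460631 (plus strand), with CHR and CCAAT matches on either strand in capitals.
POLA2: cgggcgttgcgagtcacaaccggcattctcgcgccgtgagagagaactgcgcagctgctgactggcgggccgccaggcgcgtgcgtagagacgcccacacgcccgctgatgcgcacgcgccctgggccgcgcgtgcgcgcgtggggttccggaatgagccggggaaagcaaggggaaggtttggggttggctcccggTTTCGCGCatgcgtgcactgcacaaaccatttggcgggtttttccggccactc
E2F1: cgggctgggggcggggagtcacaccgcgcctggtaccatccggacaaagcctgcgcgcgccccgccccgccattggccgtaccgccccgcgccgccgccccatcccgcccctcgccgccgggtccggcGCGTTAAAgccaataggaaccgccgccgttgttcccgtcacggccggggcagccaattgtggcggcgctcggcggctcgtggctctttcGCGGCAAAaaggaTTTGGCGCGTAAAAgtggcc
ASPM: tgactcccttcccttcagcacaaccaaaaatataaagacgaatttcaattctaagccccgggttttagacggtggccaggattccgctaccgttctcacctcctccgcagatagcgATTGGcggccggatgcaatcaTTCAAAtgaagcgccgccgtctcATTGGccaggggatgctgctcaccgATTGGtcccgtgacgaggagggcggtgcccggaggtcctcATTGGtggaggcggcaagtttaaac
HMMR: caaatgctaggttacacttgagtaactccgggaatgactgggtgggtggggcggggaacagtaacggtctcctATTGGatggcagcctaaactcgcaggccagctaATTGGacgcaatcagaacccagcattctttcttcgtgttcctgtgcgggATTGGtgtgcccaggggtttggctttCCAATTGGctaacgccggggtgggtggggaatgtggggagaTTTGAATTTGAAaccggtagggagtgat

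HMMR held 2 CHR matches side by side and 5 CCAAT matches, and ASPM 1 and 4. E2F1 held 4 E2F-type matches and POLA2 1. E2F1 was called higher in HFM12 by 0.50 ± 0.11 (SE, adjusted p = 0.0036).

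Genes of the hypoxia response and of glycolysis were higher in HFM12. Of 33 tested, 20 were called higher (22.0% of all genes tested), 1 lower and 12 did not pass, with a median difference of 0.28. Without HFM12 replicate 1 the counts were 22 and 2, and with only the 6 arrays of the pair 15 and 0. In 11 of the 33 the GM24 arrays lay below all other arrays of the series (6.30% of all genes tested), and in 2 the HFM12 arrays lay above all others (4.19%). ANKRD37, a small ankyrin repeat protein known as a target of hypoxia-inducible factors, was at 8.23, 7.89 and 7.76 in HFM12 and 6.77, 6.80 and 6.77 in GM24. It was 2.26-fold higher, a log2 difference of 1.18 ± 0.10 (SE, adjusted p = 1.3e-05), and was 1.04 without replicate 1, its highest array. ENO2, the neuronal enolase of glycolysis, was at 8.41, 8.23 and 8.20 against 7.25, 7.18 and 7.11, a difference of 1.10 ± 0.07 (SE, adjusted p = 3.3e-06). DDIT4, which restrains the growth kinase mTOR, was at 11.55, 11.46 and 11.44 against 10.48, 10.47 and 10.39, a difference of 1.04 ± 0.05 (SE, adjusted p = 5.6e-07). None of these 3 genes overlapped between the groups, and in all 3 GM24 lay below the other 9 arrays.

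The genes of the factors themselves were called in opposite directions, but only the higher call held without HFM12 replicate 1. EPAS1, the gene of HIF-2alpha, was higher by 0.66 ± 0.05 (SE, adjusted p = 5.9e-06), at 9.74, 9.66 and 9.65 against 9.01, 9.01 and 9.07. HIF1A, the gene of HIF-1alpha, was the 1 member called lower, at -0.24 ± 0.09 (SE, adjusted p = 0.0497). It lost the call without HFM12 replicate 1 and in the fit of only the 6 arrays of the pair. It is named because it was the single lower member, after its value was seen. MIR210HG, the host transcript of the hypoxia-linked microRNA miR-210, had the largest positive difference of all genes that met the naming rule. It was at 7.05, 6.40 and 6.65 in HFM12 and 5.26, 5.05 and 5.19 in GM24, a difference of 1.53 ± 0.13 (SE, adjusted p = 1.1e-05). GM12 and HFM24, with means of 5.29 and 4.95, were near GM24, and HFM12 alone was high.

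The core of the hypoxia response element, ACGTG on either strand, was found in 8 of 19 promoter windows of the hypoxia genes called higher (42.1%), against 26.4% of genes tested and 21.6% of all windows. It was found in 6 of 10 windows of the members not called higher. The 2 with the largest differences are shown as the examples of the group, ANKRD37 at chr4:185396591-185396840 (plus strand) and ENO2 at chr12:6914330-6914579 (plus strand). They run 5′ to 3′ over the 250 bases before the start, with ACGTG on either strand in capitals. The 3 matches of ANKRD37 include 2 that overlap on opposite strands, and ENO2 has 1.
ANKRD37: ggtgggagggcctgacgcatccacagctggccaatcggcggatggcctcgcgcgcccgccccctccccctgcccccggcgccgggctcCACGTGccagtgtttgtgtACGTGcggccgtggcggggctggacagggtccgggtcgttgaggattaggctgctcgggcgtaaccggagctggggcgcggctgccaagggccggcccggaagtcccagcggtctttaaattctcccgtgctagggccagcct
ENO2: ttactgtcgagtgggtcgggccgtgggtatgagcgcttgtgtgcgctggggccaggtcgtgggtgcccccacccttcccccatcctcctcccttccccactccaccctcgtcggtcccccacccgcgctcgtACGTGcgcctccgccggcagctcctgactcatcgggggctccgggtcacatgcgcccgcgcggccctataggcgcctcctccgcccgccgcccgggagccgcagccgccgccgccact

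Glucose entry and its control showed the same direction. Of 24 genes of the MondoA and glucose entry list, 14 were called higher (22.0% of all genes tested) and 1 lower, with a median of 0.31. Without HFM12 replicate 1 these were 11 and 2. SLC2A3, a high-affinity glucose transporter, was at 7.96, 8.03 and 8.08 in HFM12 and 7.11, 7.16 and 6.97 in GM24, 1.93-fold higher with a log2 difference of 0.95 ± 0.06 (SE, adjusted p = 4.2e-06). HFM24 had a mean of 10.26 and GM12 one of 6.88. PDK1, which holds pyruvate out of the mitochondrion's oxidation, was at 8.76, 9.07 and 9.15 against 8.04, 8.15 and 8.12, a difference of 0.89 ± 0.09 (SE, adjusted p = 4.3e-05). SLC2A1, the basal glucose transporter, was higher by 0.69 and PFKFB4, which sets a regulator of glycolytic flux, by 0.72. TXNIP and ARRDC4, arrestins that the factor MondoA induces with glucose, were higher by 0.42 ± 0.07 and 0.50 ± 0.07 (SE, adjusted p = 0.00078 and 0.00023).

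**Figure D3:**
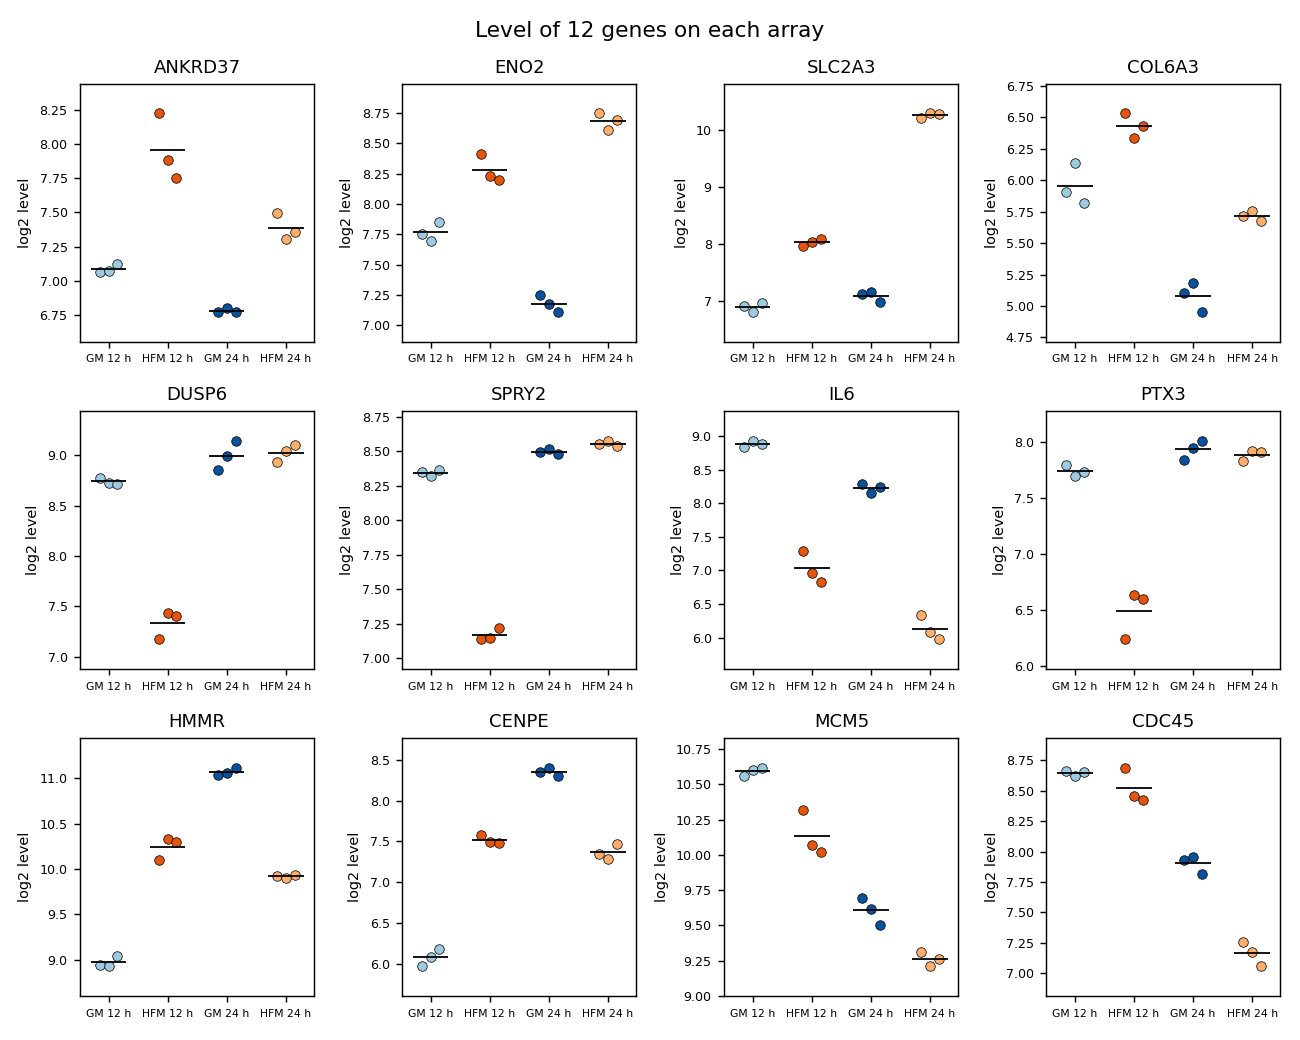
Log2 level of 12 genes on every array, by group (x axis); points are arrays, in the order of replicates 1 to 3 within a group, and bars are group means. DUSP6, SPRY2 and PTX3 are low in HFM12 alone, HMMR and CENPE are highest in GM24 and lowest in GM12, and MCM5 and CDC45 in HFM12 lie between GM12 and GM24 in their means. Each panel has its own y axis.

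DUSP6 and SPRY2, feedback inhibitors of ERK, were among the genes with the largest negative differences. They belong to a list of MAP kinase phosphatases and ERK feedback genes, which also holds the ETS factor ETV1. Of 24 members tested, 10 were called lower (14.1% of all genes tested), 2 higher and 12 did not pass. The median difference was -0.15, and without HFM12 replicate 1 the counts were 13 lower and 1 higher. DUSP6, the phosphatase that switches off ERK, had the largest negative difference of all genes that met the naming rule. Its level was 7.17, 7.44 and 7.40 in HFM12 and 8.85, 8.99 and 9.15 in GM24. HFM12 was 3.16-fold lower, a log2 difference of -1.66 ± 0.09 (SE, adjusted p = 1.5e-06). The GM12 mean of 8.74 and the HFM24 mean of 9.03 were both near GM24, and HFM12 alone was low. SPRY2, a Sprouty inhibitor of receptor signalling, repeated this with 7.14, 7.15 and 7.22 in HFM12 and 8.49, 8.52 and 8.48 in GM24. Its difference was -1.33 ± 0.04 (SE, adjusted p = 4e-08), with means of 8.34 in GM12 and 8.55 in HFM24.

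DUSP4, another MAP kinase phosphatase, and ETV1, an ETS factor downstream of ERK, differed in their pattern over the series. DUSP4 was at 6.42, 5.89 and 6.14 against 7.09, 7.25 and 7.08, a difference of -0.99 ± 0.11 (SE, adjusted p = 7.4e-05), and HFM24 at a mean of 6.63 was also under GM12 at 8.10. ETV1 was at 6.16, 6.35 and 6.28 against 7.20, 7.20 and 7.33, a difference of -0.98 ± 0.07 (SE, adjusted p = 4.2e-06), with GM24 above all other arrays. In 6 of the 24 members the HFM12 arrays lay below all 9 others (1.02% of all genes tested), and in 3 the GM24 arrays lay above all others (7.70%). EGR1, an immediate early factor that ERK induces, was at 4.30, 4.34 and 4.62 in HFM12 and 5.48, 5.37 and 5.11 in GM24, close to the limit of log2 4 used for testing. Its difference was -0.90 ± 0.11 (SE, adjusted p = 0.00011). HBEGF, a ligand of the EGF receptor, was lower by a difference of -0.75 ± 0.09 (SE, adjusted p = 0.00016), at 6.88, 6.49 and 6.50 against 7.39, 7.40 and 7.33. The immediate early list as a whole went both ways, with 9 of 26 called lower (14.1% of all genes tested) and 5 higher (22.0%). The higher share of the list, 19.2%, was near that of all genes. Without HFM12 replicate 1 the counts were 12 lower and 7 higher. ATF3, a stress-induced factor of that list, was higher by 0.81 ± 0.09 (SE, adjusted p = 9.7e-05), though it lost the call when cross-hybridising probe set types were left out.

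Inflammatory cytokines were mostly lower in HFM12. Of 18 tested, 10 were called lower (14.1% of all genes tested), 3 higher and 5 did not pass, with a median of -0.24, and the counts without HFM12 replicate 1 were also 10 and 3. PTX3, a secreted pattern recognition protein, was at 6.24, 6.63 and 6.60 in HFM12 and 7.84, 7.95 and 8.01 in GM24, a difference of -1.45 ± 0.09 (SE, adjusted p = 3.3e-06). Its means of 7.74 in GM12 and 7.89 in HFM24 were near GM24. IL1B, a cytokine of the interleukin-1 family, had the same shape, with 7.39, 7.004 and 7.17 against 8.13, 8.04 and 8.05 and means of 8.06 and 8.07 in the other groups. Its difference was -0.89 ± 0.08 (SE, adjusted p = 2.3e-05). IL6, a cytokine of the acute phase, was at 7.29, 6.97 and 6.82 in HFM12 and 8.28, 8.15 and 8.25 in GM24, a difference of -1.20 ± 0.11 (SE, adjusted p = 3e-05). For IL6 the mean was 8.88 in GM12 and 6.13 in HFM24, so both HFM groups were below both GM groups. CXCL8, a neutrophil chemokine, was lower by a difference of -0.64 ± 0.08 (SE, adjusted p = 0.00022). IL1R1, the receptor of interleukin-1, was one of the 3 higher members, at 5.70, 5.72 and 5.79 against 5.04, 5.14 and 5.08.

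Extracellular matrix genes were higher in HFM12, with 17 of 32 called higher (22.0% of all genes tested), 3 lower and a median of 0.21. Without HFM12 replicate 1 these were 18 and 3. In 12 of the 32 the GM24 arrays lay below all other arrays (6.30% of all genes tested). COL6A3, a chain of collagen VI, was at 6.53, 6.33 and 6.43 in HFM12 and 5.10, 5.18 and 4.95 in GM24, 2.56-fold higher with a log2 difference of 1.35 ± 0.09 (SE, adjusted p = 3.3e-06). FN1, the matrix glycoprotein fibronectin, was at 10.77, 10.53 and 10.54 against 9.68, 9.66 and 9.79, a difference of 0.91 ± 0.07 (SE, adjusted p = 6.9e-06). In both genes HFM12 lay above and GM24 below all other arrays. TNC, the matrix protein tenascin, was higher by 0.74 ± 0.08 and COL4A1, a basement membrane collagen, by 0.70 ± 0.05 (SE, adjusted p = 7.9e-05 and 3.8e-06). In the TGF-beta list 10 of 27 were called higher (22.0% of all genes tested) and 4 lower (14.1%). The lower share of the list, 14.8%, was near that of all genes. The counts were 10 and 5 without HFM12 replicate 1, and 6 and 4 in the fit of only the 6 arrays. TGFBI, a matrix protein that TGF-beta induces, was higher by 0.82 ± 0.09, and the receptor TGFBR2 was lower by a difference of -0.74 ± 0.08 (SE, adjusted p = 8.1e-05 and 9.9e-05).

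Lipid genes differed by less than 2-fold in the lists examined. Of 17 cholesterol synthesis genes 9 were called higher (22.0% of all genes tested) and 1 lower, of 16 fatty acid synthesis genes 4 and 0, and of 16 PPAR target genes 8 and 0. The share of the fatty acid synthesis list called higher, 4 of 16, was near that of all genes tested. For the lists with 0 lower calls by limma there were also 0 lower members at an unadjusted p under 0.05. Leaving out HFM12 replicate 1 gave 7 and 2, 5 and 0, and 8 and 0. In the fit of only the 6 arrays, the cholesterol count was 4 higher and 1 lower. HMGCS1, which makes HMG-CoA for sterols, was at 7.73, 7.76 and 7.76 in HFM12 and 7.31, 7.20 and 7.38 in GM24. Its difference of 0.45 ± 0.09 (SE, adjusted p = 0.0023) fell to 0.08 with an adjusted p of 0.62 when all its probe sets were averaged. INSIG1, which holds the sterol sensor in the endoplasmic reticulum, was at 9.07, 9.46 and 9.46 against 8.60, 8.62 and 8.79, a difference of 0.66 ± 0.10 (SE, adjusted p = 0.00054). SCD, the desaturase that makes oleate, was at 9.58, 9.52 and 9.49 against 9.03, 8.999 and 9.05, a difference of 0.50 ± 0.04 (SE, adjusted p = 1.9e-05). FASN, the fatty acid synthase, was higher by 0.47 ± 0.08 and PLIN2, the coat protein of lipid droplets, by 0.37 ± 0.06 (SE, adjusted p = 0.00086 and 0.00089). FABP4, a fatty acid carrier, was higher by 0.70 ± 0.06 (SE, adjusted p = 2.3e-05) and HILPDA, a hypoxia-induced inhibitor of lipolysis, by 0.73 ± 0.08 (SE, adjusted p = 9e-05).

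Several genes that fatty acids or sterols are known to induce were not called. PDK4, a PPAR target, differed by 0.05 ± 0.06 (SE, adjusted p = 0.50) at 6.17, 6.15 and 6.22 against 6.03, 6.16 and 6.19, and ANGPTL4, another, by 0.17 ± 0.10 (SE, adjusted p = 0.23). ABCA1, the sterol exporter, differed by 0.05 ± 0.06 (SE, adjusted p = 0.56) and SREBF1, a lipogenic factor, by 0.33 ± 0.12 (SE, adjusted p = 0.054). The arrays of both groups overlapped in all 4 of these genes. A p above the threshold does not show that the groups were equal. SREBF1 was called higher under 7 of 15 alternative settings. Of the fatty acid oxidation list 10 of 24 were called higher (22.0% of all genes tested) and 3 lower (14.1%). The counts were 9 and 3 without HFM12 replicate 1, and 4 and 0 in the fit of only the 6 arrays. CPT1A, the gate of fatty acids into the mitochondrion, was higher by 0.26 ± 0.07 (SE, adjusted p = 0.01) and lost the call in the fit of the 6 arrays. ACADVL, a long-chain dehydrogenase, was higher by 0.49 ± 0.09 (SE, adjusted p = 0.0013), and ACADM, its medium-chain relative, was lower by a difference of -0.45 ± 0.15 (SE, adjusted p = 0.034) that replicate 1 at 8.80 enlarged.

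In each of 4 lists of stress genes, most members were not called higher and more were called higher than lower. Of 33 genes of the unfolded protein response 13 were called higher (22.0% of all genes tested) and 1 lower, of 35 ATF4 and amino acid genes 11 and 5, of 26 NRF2 targets 10 and 3, and of 23 FOXO genes 10 and 3. Leaving out HFM12 replicate 1 gave 13 and 2, 11 and 7, 13 and 3, and 11 and 4. In the fit of only the 6 arrays the NRF2 count was 4 higher and 3 lower, and the ATF4 count 6 and 2. The share of ATF4 genes called lower, 14.3%, was near the 14.1% of all genes tested, and the FOXO median of 0.08 was near the 0.04 over all genes. NQO1, a quinone reductase, was at 8.93, 8.69 and 8.71 in HFM12 and 7.77, 7.81 and 7.76 in GM24, a difference of 1.00 ± 0.06 (SE, adjusted p = 3.3e-06). HMOX1, which breaks down heme, was at 9.46, 9.17 and 9.23 against 8.52, 8.57 and 8.33, a difference of 0.81 ± 0.08 (SE, adjusted p = 5e-05). DDIT3, the stress factor CHOP, was higher by 0.64 ± 0.09 (SE, adjusted p = 0.00035), at 9.12, 8.85 and 8.78 against 8.34, 8.34 and 8.16. MANF, a secreted factor of endoplasmic reticulum stress, was higher by 0.56 ± 0.06 and CDKN1A, an inhibitor of cell cycle kinases, by 0.74 ± 0.06 (SE, adjusted p = 3.7e-05 and 1.7e-05). XBP1, a factor of the unfolded protein response, was higher by 0.58 ± 0.09 (SE, adjusted p = 0.00053), but another of its probe sets was called the opposite way. SLC7A11, the cystine carrier, was lower by a difference of -0.45 ± 0.07 (SE, adjusted p = 0.00083). ASNS, which makes asparagine, was lower by a difference of -0.15 ± 0.05 (SE, adjusted p = 0.031) and lost the call under 8 of 14 alternative settings. Of 22 heat shock genes 7 were called lower (14.1% of all genes tested) and 3 higher (22.0%). The counts were the same without HFM12 replicate 1, and 3 and 2 in the fit of only the 6 arrays.

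Ribosomal protein genes had small differences. None of 24 was called by limma in either direction, and 1 was higher and 1 lower at an unadjusted p under 0.05. Their differences ran from -0.10 to 0.15. The arrays of the groups did not overlap in 9 of them with HFM12 higher and in 2 with HFM12 lower, against 47.1% of all genes tested in either direction. ACTB and GAPDH, used as controls, differed by 0.03 ± 0.04 and 0.06 ± 0.04 (SE, adjusted p = 0.64 and 0.31). MT2A, a metallothionein, differed by 0.07 ± 0.04 (SE, adjusted p = 0.21). Of 34 oxidative phosphorylation genes 10 were called higher (22.0% of all genes tested) and 0 lower, also 0 at an unadjusted p under 0.05, with 9 and 0 without HFM12 replicate 1, and 1 was called higher in the fit of the 6 arrays. Of 26 splicing kinases and SR factors 11 were called higher (22.0% of all genes tested) and 3 lower (14.1%). The counts were 11 and 5 without HFM12 replicate 1, and 7 and 3 in the fit of the 6 arrays. For SRSF1 and SRSF4, splicing factors of the SR family with differences of 0.57 and 0.58, other probe sets were called the opposite way.

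Other genes with large differences belonged to no single list. SBSN, an epidermal secreted protein, was at 7.07, 6.59 and 6.65 in HFM12 and 5.36, 5.18 and 5.25 in GM24, a difference of 1.51 ± 0.10 (SE, adjusted p = 4.8e-06). GM12 and HFM24 had means of 6.76 each, so GM24 alone was low. ERBB3, a receptor of the EGF receptor family, was at 10.64, 10.46 and 10.49 against 9.16, 9.11 and 9.18, a difference of 1.38 ± 0.05 (SE, adjusted p = 1.1e-07). SYNE1, a nuclear envelope protein, was higher by 1.41, KAAG1 by 1.49, HBE1, an embryonic globin, by 1.18, LXN, a carboxypeptidase inhibitor, by 1.18, the pseudogene DUSP5P1 by 1.16 and MEX3B, an RNA-binding protein, by 1.15. DUSP5P1 and ALG10 could share signal with a close copy elsewhere in the genome, DUSP5 and ALG10B. On the lower side ZNF235, a zinc finger gene, differed by -1.35, the long noncoding RNA PURPL by -1.24, the pseudogene AADACP1 by -1.13, PRKACB, a catalytic subunit of protein kinase A, by -1.09, ALG10, a glycosyltransferase, by -1.04, the adhesion protein NECTIN3 by -1.03 and TMCC3 by -1.02. PURPL was at 4.62 in replicate 1 and at 5.50 and 5.69 in the other 2 HFM12 arrays, and its difference without replicate 1 was -0.91.

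The comparison of HFM24 with GM12 uses the 6 arrays that the pair leaves out. It sets the same media against each other with the order of the times reversed, and its values help to place the genes above. The controls of these 2 groups lay far apart. The ACTB 3′ minus 5′ difference was 1.53 to 1.64 in HFM24 and 0.86 to 0.91 in GM12. The GAPDH difference was 0.256 to 0.302 and 0.130 to 0.164. The 18S ribosomal RNA control probe sets stood at 11.21 to 11.23 in HFM24 and 12.32 to 12.34 in GM12. The part of these control differences in the calls and signs below was not tested. In it 3620 genes were called higher in HFM24 (27.6%) and 6348 lower (48.3%), and 4734 and 4696 when each array was centred on its median. Of the 2887 genes higher in HFM12 than in GM24, 644 were also higher in HFM24 than in GM12, which is 22.3% of the first list and 17.8% of the second. A larger number, 1769, were lower there, which is 61.3% of the first and 27.9% of the second. Of the 1846 lower genes, 567 were lower there too (30.7% and 8.93%) and 991 were higher (53.7% and 27.4%). By construction a gene that differs with the medium alone has the same sign in both comparisons, and a gene that differs with time alone has opposite signs. The reverse does not hold, since a gene that differs with both can show either pattern. The signs therefore cannot tell medium and time apart, and the part of each was not tested.

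**Figure D4:**
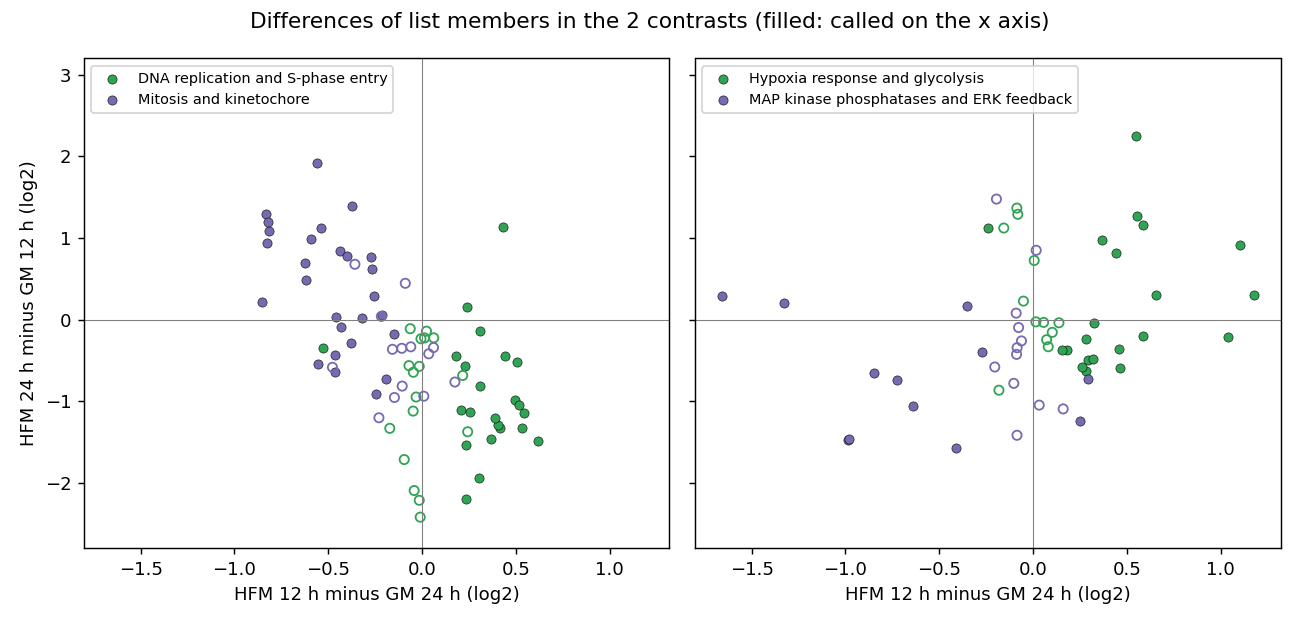
Log2 difference of HFM12 minus GM24 (x axis) against HFM24 minus GM12 (y axis) for the tested members of 4 gene lists, replication and mitosis on the left and hypoxia and ERK feedback on the right; filled points were called on the x axis. In the left panel called replication genes lie mostly at the lower right, and called mitosis genes lie at the left with both signs on the y axis. In the right panel called hypoxia genes lie mostly at positive x with both signs on the y axis.

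Most replication genes called higher in HFM12 than in GM24 had the opposite sign in the other comparison. Of these 22 genes, 20 were called lower in HFM24 than in GM12, and 2 higher. Of all genes called higher in HFM12, 61.3% were lower there. Of all 40 list members tested, 38 were called lower there and 2 higher, against 48.3% and 27.6% of all genes tested. The lower call in HFM24 was thus shared by nearly the whole list. E2F3, the 1 member called lower in HFM12, was lower in both, at -0.53 and -0.35. CDC45 had differences of 0.62 and -1.48 and MCM5 of 0.53 and -1.33. Of the 27 mitosis genes called lower in HFM12, 16 were called higher in HFM24 than in GM12 and 7 lower, near the 53.7% and 30.7% of all genes called lower in HFM12. CENPE had -0.83 and 1.29, and HMMR -0.83 and 0.94. The hypoxia list was divided, with 8 of its 20 higher genes called higher in both and 11 called lower in the second, against 22.3% and 61.3% of all genes called higher, such as DDIT4 at 1.04 and -0.21. ENO2 was higher in both, at 1.10 and 0.92. In the ERK feedback list 7 of the 10 lower genes were lower in both, against 30.7% of all genes called lower in HFM12. DUSP4 was at -0.99 and -1.48, while DUSP6 at 0.29 and SPRY2 at 0.21 were higher in HFM24 than in GM12. Of all 24 members tested, 17 were called lower and 4 higher there, against 48.3% and 27.6% of all genes tested.

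Genes with a large difference of the same sign in both comparisons were fixed by rule as the 6 with the largest smaller difference. The higher ones were SYNE1 at 1.41 and 2.73, LXN at 1.18 and 1.40, DUSP5P1 at 1.16 and 3.34, MEX3B at 1.15 and 2.16, OSMR, a subunit of the oncostatin M receptor, at 0.95 and 2.23, and the noncoding RNA MINCR at 0.95 and 3.40. Another probe set of OSMR was called the opposite way in the first comparison. The lower ones were IL6 at -1.20 and -2.75, AADACP1 at -1.13 and -1.13, ALG10 at -1.04 and -1.64, TMCC3 at -1.02 and -1.19, DUSP4 at -0.99 and -1.48, and ETV1 at -0.98 and -1.46. The rule fixed the shared sign of these genes.

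Genes with opposite signs were named by the same rule. Higher in HFM12 and lower in HFM24 were HBE1 at 1.18 and -1.11, NQO1 at 1.00 and -1.63, PRDX2, a peroxide-removing enzyme, at 0.98 and -2.49, TMCO6 at 0.97 and -1.05, the mitochondrially encoded ND6 of respiratory complex I at 0.95 and -0.93, and DEAF1, a transcription factor, at 0.89 and -1.02. Lower in HFM12 and higher in HFM24 were PURPL at -1.24 and 1.20, DZIP3 at -0.95 and 1.26, ANKRD1, a target of the Hippo factor YAP, at -0.93 and 1.20, COL4A5, a basement membrane collagen, at -0.87 and 0.88, CDK17 at -0.83 and 1.16, and CENPE. For ANKRD1 the means were 7.17 in GM12, 7.16 in HFM12, 8.09 in GM24 and 8.37 in HFM24, so both groups at 24 hours were above both groups at 12 hours.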

How the data were processed

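Total RNA was measured on Affymetrix arrays, 12 in all. The authors deposited log2 values per probe set, made with GCRMA per the submitters' processing notes; no version is given there. Of 54675 probe sets, 41097 had 1 gene symbol, 1801 several and 11777 none. The probe set with the highest mean over 12 arrays stood for each of 19775 genes, and genes were tested where 3 or more of the 12 arrays reached log2 4, which left 13130. Differences came from 1 limma fit (version 3.58.1, R 4.3.3) of 4 groups with Benjamini-Hochberg adjustment. The fit was tried on simulated data with independent noise, 1 spread per gene over all groups and few changed genes. In the real arrays 36.0% of genes were called and HFM12 replicate 1 stood apart, so that trial cannot vouch for the calls here. No further normalisation was applied. Values of the control probe sets were compared with exact permutation tests. The number of arrays limits the precision.

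Genes were named by rule. They were the 12 largest higher and lower called genes with a group mean of log2 6 or more, no overlap and the same call without HFM12 replicate 1; up to 4 called members per list; a fixed list; and the 6 largest in each direction by agreement of sign with HFM24 against GM12. FOS, on the fixed list, was not among the genes tested. The groups and the 44 lists were chosen with earlier results of these data known. Alternatives changed the filter, probe set choice, normalisation, variance model, arrays fitted and replicates. Promoters were read from RefSeq (GRCh38.p14).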

Additional observations from a re-analysis of the deposited data

Results flagged for a closer look

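Probe sets with several gene symbols or none took no part in the gene comparisons, and 1330 of the 5138 tested were called between HFM12 and GM24 (25.9%), 604 higher and 726 lower, with 22 at 2-fold or more. They drew attention as signal outside the main measurement. The bacterial controls spiked into the hybridisation were higher in HFM12 than in GM24 by 0.16 on the log2 scale (exact two-sided permutation p = 0.2), and by 0.088 without HFM12 replicate 1. The control probe sets for 18S ribosomal RNA stood at 12.50, 12.46 and 12.44 in HFM12 and at 12.79, 12.81 and 12.82 in GM24, a difference of -0.34 without overlap (exact two-sided permutation p = 0.1, the smallest that 3 against 3 arrays allow). Both controls drew attention because they are outside the genes analysed and differed between the groups. Their part in the results was not tested.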

How the results depend on the processing

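With only the compared arrays in the fit, 2600 genes were called between HFM12 and GM24, 1516 higher and 1084 lower. At least 2-fold were 34, 18 and 16, and between HFM24 and GM12 2622, 1052 and 1570. Leaving out 1 array at a time gave 3296 to 5071 calls for the pair (1941 to 3240 higher, 1355 to 2282 lower), with the lowest count without GM24 replicate 3. The deviations of same-numbered HFM12 and GM24 arrays from their group means correlated at 0.39, -0.17 and 0.42. Deviations of 3 arrays from their own mean depend on each other, so these values cannot decide whether the numbers pair the samples. With the replicate block 4984 genes were called, 3053 higher and 1931 lower. Centring each array gave 55.8% higher among calls against 61.0%. Without probe sets ending in _s_at or _x_at, IDI1 turned to -0.17, ASPM to 0.22, EIF3A to 0.14 and ICAM2 to 0.16, and with probe sets averaged SRSF4 turned to -0.091; the cause was not tested. Of 195 named genes, 188 were called, and 49 lost the call or turned under at least 1 setting. List counts with only the compared arrays, with averaged probe sets and without those probe set types were added after seeing the data: mitosis then had 20, 26 and 19 lower members, and replication 16, 22 and 16 higher. Dim probe sets near log2 4 limit what can be seen.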

Other observations

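Several gene groups outside the comparisons described above were also measured in the pair. Of 16 circadian clock genes 5 were called higher and 0 lower by limma, also 0 lower at an unadjusted p under 0.05, and 3 were higher without HFM12 replicate 1. Of 28 translation initiation factors 11 were higher and 4 lower, and of 26 interferon-stimulated genes 8 and 7. Genes of the Hippo pathway and YAP targets were called lower in 8 of 25 and higher in 6. Of 22 p53 targets 8 were higher and 6 lower, and of 35 autophagy and lysosome genes 8 and 2. In the fit of only the 6 arrays of the pair the higher and lower counts were 3 and 0 for the clock, 4 and 1 for translation, 3 and 5 for interferon, 4 and 3 for Hippo, 5 and 4 for p53 and 5 and 0 for autophagy. The shares over all genes tested were 22.0% higher and 14.1% lower.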
